A study of Mus musculus with 11 samples.

Results

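A set of 9 genes for proteins that glial cells release were followed in ribosome footprints of mouse cortex after a stroke. They are Ptgds, Apod, Apoe and Clu (lipid carriers), Enpp2 (a lipid enzyme), Trf (iron transport), Sparc and Sparcl1 (matrix), and Cst3 (a protease inhibitor). The list names the genes, and each gene's Ensembl transcript was chosen by its measured count, as the transcript with the highest sum over all 11 libraries. All 9 genes were found among 4338 genes, with summed counts from 373 for Apod to 22102 for Sparcl1, and all 9 passed the filter on low counts that left 3807 genes. The list was drawn up with group differences of these libraries already known, so the differences below describe these libraries and do not test the list.

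All mice were wild-type C57BL6 aged 7 to 8 weeks. In the stroke groups a filament closed the right middle cerebral artery for 35 min, and cortex was taken 3 h after reperfusion from the occluded side (ipsilateral, replicates 2, 4, 5 and 6) or the opposite side (contralateral, replicates 1, 4, 5 and 6). Sham mice (replicates 1, 2 and 5) were anesthetized and had their arteries exposed with no filament inserted, and the side of their cortex is not stated. Replicates came from separate surgery days, and the tissue entry of the 4 ipsilateral samples names the other hemisphere, against their titles and descriptions, which were followed. Summed over the 1 transcript kept per gene, library totals ran from 64461 to 256655 counts in sham, 137370 to 571352 in contralateral and 35066 to 137340 in ipsilateral cortex. The ipsilateral group was thus the shallowest. Levels are CPM, counts scaled to a common library total after correction for library composition (TMM). In these bulk samples more cells of a type and more RNA per cell cannot be told apart, and without total RNA libraries neither can transcript amount and translation.

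Glia secrete proteins that move lipid, metal and matrix components between brain cells. Astrocytes make most apolipoprotein E and clusterin, which carry cholesterol and phospholipid in particles that neurons take up through lipoprotein receptors. Mature oligodendrocytes make transferrin, the iron carrier, and prostaglandin D synthase and apolipoprotein D, both members of the lipocalin family that hold small fatty molecules in a barrel-shaped pocket. SPARC and its relative SPARC-like 1 (hevin) are matricellular proteins, which sit in the matrix and tune how cells adhere and form synapses. Several of these genes are not confined to glia of the cortex: Ptgds, Enpp2 and Trf are also known from choroid plexus or meninges, and Sparc from endothelium.

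Sparc and Sparcl1 encode related proteins, and their most alike coding stretch is printed to show how far short footprints can tell the pair apart. Lower case marks shared bases and capitals mark the 11 of 60 that differ. The Sparc stretch covers coding bases 373 to 432 and the Sparcl1 stretch bases 1414 to 1473, counted from the start codon, in the GENCODE vM21 transcripts.
Sparc: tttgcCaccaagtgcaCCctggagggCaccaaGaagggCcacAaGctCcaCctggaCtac
Sparcl1: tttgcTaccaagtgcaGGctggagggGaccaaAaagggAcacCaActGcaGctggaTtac
The longest run of identical bases in the coding sequences of the pair was 14 nt, shorter than a footprint. Of the 28-nt words of the Sparc transcript 0.396% also occurred in another gene, and for 7 of the other 8 genes none did. Trf was the exception: 80.8% of its words occurred in another gene, because the overlapping same-strand gene Gm20425 shares 2108 nt with it. The Trf counts are therefore uncertain between these annotations.

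Promoter sequence was matched for 5 of the 9 genes (Ptgds, Apod, Sparc, Cst3 and Apoe) in RefSeq on GRCm38.p6. The 250 bases before the RefSeq start are shown for the lipocalins Ptgds and Apod. Their mean footprint levels were highest in ipsilateral cortex, as were those of all other members except Enpp2. Motifs were searched on both strands by their letters: TGANTCA for AP-1, TATAAA for the TATA element, GGGCGG for the GC-rich Sp1 element and CCAAT for the NF-Y element. They were chosen with the sequences in view, and capitals mark the single match in the windows shown, an AP-1 motif.
Ptgds: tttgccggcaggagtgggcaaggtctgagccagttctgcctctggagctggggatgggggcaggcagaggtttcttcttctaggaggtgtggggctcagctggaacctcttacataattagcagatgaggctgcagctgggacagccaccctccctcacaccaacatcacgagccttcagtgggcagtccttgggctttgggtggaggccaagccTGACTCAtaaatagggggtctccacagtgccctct
Apod: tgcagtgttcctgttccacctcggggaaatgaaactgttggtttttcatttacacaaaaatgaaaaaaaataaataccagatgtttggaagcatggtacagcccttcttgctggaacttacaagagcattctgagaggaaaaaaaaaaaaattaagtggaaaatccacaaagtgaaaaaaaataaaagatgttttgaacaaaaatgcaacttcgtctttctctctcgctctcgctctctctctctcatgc
The Ptgds window is chr2:25469750-25469999 and the Apod window chr16:31314809-31315058, both on the minus strand. The Apod window lies just before the annotated gene, whereas the RefSeq start of Ptgds lies inside its GENCODE span given below. The whole Ptgds window, with its motif, lies inside that span. Ptgds held the motif once, at position -35 from the RefSeq start, and the Apod window held none of the 4 motifs. Among the other matched genes Cst3 held the Sp1 element, and 1 of the 3 Apoe windows, which lies inside the annotated Apoe span, held the TATA element. Over 32851 promoter windows of the same length the motifs occurred in 6.75%, 12.4%, 32.7% and 33.8%, in the order given. A match is a string of letters and not a measured binding site.

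The genes lie at separate places in mm10, and only Clu is on the plus strand. Ptgds lies on chromosome 2 from 25466709 to 25470046 and Cst3 on the same chromosome from 148871722 to 148875692. Apod lies on chromosome 16 from 31296192 to 31314808, Trf on chromosome 9 from 103204001 to 103230444 and Enpp2 on chromosome 15 from 54838901 to 54952892. Sparc lies on chromosome 11 from 55394500 to 55423183, Sparcl1 on chromosome 5 from 104079111 to 104113733, Apoe on chromosome 7 from 19696109 to 19699188 and Clu on chromosome 14 from 65968483 to 65981547.

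In sham cortex the genes covered a wide range of footprint density. Sparcl1 had the highest level per coding length, 5188 ± 1189 CPM per kb (SD, n = 3), and ranked 5 of 3754 genes with a coding length. Cst3 followed at 3039 ± 390 CPM per kb and Apoe at 2999 ± 730 CPM per kb, and their sham ranges overlapped. Clu (1673 ± 336 CPM per kb) and Ptgds (1591 ± 41.8 CPM per kb) also overlapped. Sparc overlapped neither neighbour at 357 ± 43.8 CPM per kb. Enpp2 (232 ± 33.7), Trf (203 ± 14) and Apod (179 ± 38.6 CPM per kb) closed the order, each overlapping its neighbour. Clu was above Ptgds in 4 of 11 libraries, Enpp2 above Trf in 6, Trf above Apod in 6 and Cst3 above Apoe in 9. The order within these pairs thus differed between libraries. The share of all counts held by the 9 genes together was 1.64 to 2.11% in sham, 1.87 to 2.41% in contralateral and 1.98 to 2.64% in ipsilateral libraries, with overlapping groups.

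**Figure D1:**
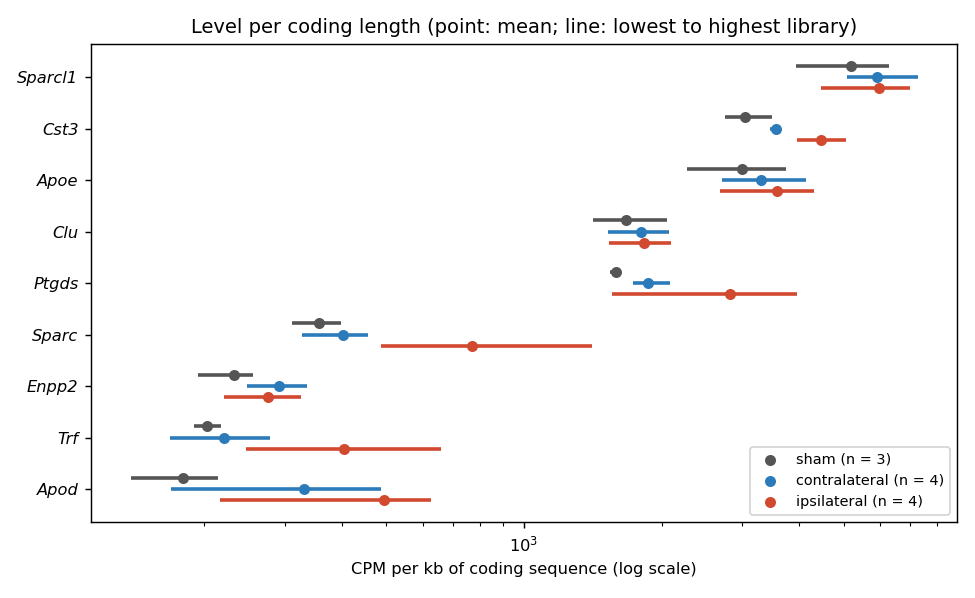
Mean footprint level of each gene in CPM per kb of coding sequence (log scale, points) with the lowest and highest library (lines) in sham (n = 3), contralateral (n = 4) and ipsilateral (n = 4) cortex. Sparcl1 is highest in every group, at 5188 CPM per kb in sham cortex, and Apod is lowest in sham cortex at 179 CPM per kb.

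The first question is how footprints on these genes in the occluded hemisphere, 3 h after reperfusion, compare with sham. The genes fell into those with higher ipsilateral levels (Apod, Sparc, Trf, Ptgds and Cst3, by 0.54 to 1.35 on the log2 scale) and those with smaller differences of 0.14 to 0.27 (Apoe, Sparcl1, Enpp2 and Clu). The smaller differences moved when 1 library was left out, over 0.09 to 0.44 for Apoe, 0.03 to 0.36 for Sparcl1, 0.06 to 0.28 for Enpp2 and 0.02 to 0.31 for Clu. The lowest values of Apoe and Clu came without sham replicate 1, that of Sparcl1 without sham replicate 2 and that of Enpp2 without ipsilateral replicate 2. In the fit blocked by surgery day Apoe was 0.05 and Enpp2 0.10. No member passed an adjusted p of 0.05 in edgeR's quasi-likelihood test over all genes, where 0.105% of genes did. At an unadjusted p under 0.05 stood 5 of 9 members, all higher in ipsilateral cortex, against 7.72% of all genes and 4.26% counting only higher ones. For 4 of 9 members the lowest ipsilateral value exceeded the highest sham value, against 3.86% of all genes. All 9 members had a log2 change above 0, as did 50.0% of all genes, and the median was 0.54 over the members and -0.00 over all genes.

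Among the lipid carriers, Ptgds makes prostaglandin D2 and carries lipophilic ligands. Its level was 913, 875 and 919 CPM in sham replicates 1, 2 and 5. It was 2244, 1683, 882 and 1595 CPM in ipsilateral replicates 2, 4, 5 and 6. Replicates 2, 4 and 6 were above all sham libraries and replicate 5 was within the sham range, so the groups overlapped. The log2 change was 0.83 ± 0.20 (SE), a 1.78-fold higher level (edgeR adjusted p = 0.0877).

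Apod, a lipocalin that binds arachidonic acid and is known to increase with brain injury and age, had the largest log2 change of the 9 genes in the fit without a block. Its level was 121, 78.1 and 106 CPM in sham replicates 1, 2 and 5, and 307, 354, 122 and 334 CPM in ipsilateral replicates 2, 4, 5 and 6. The groups did not overlap, but ipsilateral replicate 5 lay only just above sham replicate 1. The log2 change was 1.35 ± 0.32, or 2.54-fold (edgeR adjusted p = 0.0886). These levels rest on few counts: 12 in ipsilateral replicate 4, with an exact 95% Poisson interval of 183 to 619 CPM, and 5 in sham replicate 2, with 25.4 to 182 CPM, for counting error only. With the replicate number as a block the log2 change was 0.88 ± 0.34 (adjusted p = 0.743), below Sparc at 1.08 and Trf at 1.00.

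Apoe, the main lipoprotein of the brain, and Clu, an apolipoprotein that also acts as an extracellular chaperone, overlapped between the groups. Apoe measured 2123, 3484 and 2788 CPM in sham replicates 1, 2 and 5, and 3321, 3514, 2499 and 4030 CPM in ipsilateral replicates 2, 4, 5 and 6. Its log2 change was 0.27 ± 0.17 (edgeR adjusted p = 0.751). Clu measured 1907, 2078 and 2762 CPM in sham and 2393, 2067, 2817 and 2564 CPM in ipsilateral cortex, in the same replicate order. Its log2 change of 0.14 ± 0.16 was smaller than the spread within groups (edgeR adjusted p = 0.898). Replicate 5 was the highest library of both groups for Clu, and the lowest ipsilateral library for Apoe.

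Enpp2 encodes autotaxin, which makes the signalling lipid lysophosphatidic acid. It measured 658, 516 and 681 CPM in sham replicates 1, 2 and 5 and 868, 856, 588 and 617 CPM in ipsilateral replicates 2, 4, 5 and 6. The ipsilateral libraries split into a pair above all sham libraries and a pair inside the sham range. The log2 change was 0.20 ± 0.18 (edgeR adjusted p = 0.860).

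Trf encodes transferrin, the carrier that brings iron to cells through the transferrin receptor. It measured 454, 422 and 396 CPM in sham replicates 1, 2 and 5, and 1376, 797, 514 and 686 CPM in ipsilateral replicates 2, 4, 5 and 6. All 4 ipsilateral libraries were above all sham libraries. The log2 change was 1.02 ± 0.26, or 2.03-fold (edgeR adjusted p = 0.116). Without ipsilateral replicate 2, the highest library, it was 0.60.

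Of the matrix pair, Sparc, which binds collagen and restrains cell adhesion, was higher in every ipsilateral library than in sham, and Sparcl1, which promotes excitatory synapses, overlapped. Sparc measured 360, 281 and 327 CPM in sham replicates 1, 2 and 5, and 1279, 561, 441 and 515 CPM in ipsilateral replicates 2, 4, 5 and 6. The groups did not overlap, and replicate 2 stood far above the other ipsilateral libraries. The log2 change of Sparc was 1.14 ± 0.30 (edgeR adjusted p = 0.198), and 0.58 without ipsilateral replicate 2. Sparcl1 measured 10430, 7657 and 12262 CPM in sham and 13648, 12491, 11759 and 8721 CPM in ipsilateral cortex, in the same replicate order. Its groups overlapped, with a log2 change of 0.20 ± 0.16 (edgeR adjusted p = 0.828). The difference between the changes of Sparc and Sparcl1 was not tested.

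Cst3 encodes cystatin C, a secreted inhibitor of cysteine cathepsins. It measured 1210, 1156 and 1463 CPM in sham replicates 1, 2 and 5, and 1660, 2126, 1850 and 1870 CPM in ipsilateral replicates 2, 4, 5 and 6. All ipsilateral libraries were above all sham libraries with a modest spread. The log2 change was 0.54 ± 0.15, or 1.45-fold (edgeR adjusted p = 0.142). Unlike Ptgds, Apod, Trf and Sparc, Cst3 was not lowest in ipsilateral replicate 5.

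Ipsilateral replicate 5 was the lowest ipsilateral library for 6 of 9 members and replicate 2 the highest for 5 of 9. Without replicate 5, 4 members passed the edgeR test against sham: Ptgds (log2 change 1.03, adjusted p = 0.000387), Apod (1.58, 0.00381), Trf (1.20, 0.00408) and Sparc (1.31, 0.00933), while 22 of all genes passed. Replicate 5 was the lowest ipsilateral library for these 4 genes, so leaving it out raised their changes, and these calls are no separate support. Leaving out any other sham or ipsilateral library gave 0 members called. Without replicate 2 the log2 change of Ptgds was 0.59 (edgeR adjusted p = 0.336). DESeq2 on all libraries called 5 members (Ptgds, Apod, Trf, Sparc and Cst3, adjusted p from 0.0420 to 0.0495) and 10 genes in all.

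**Figure D2:**
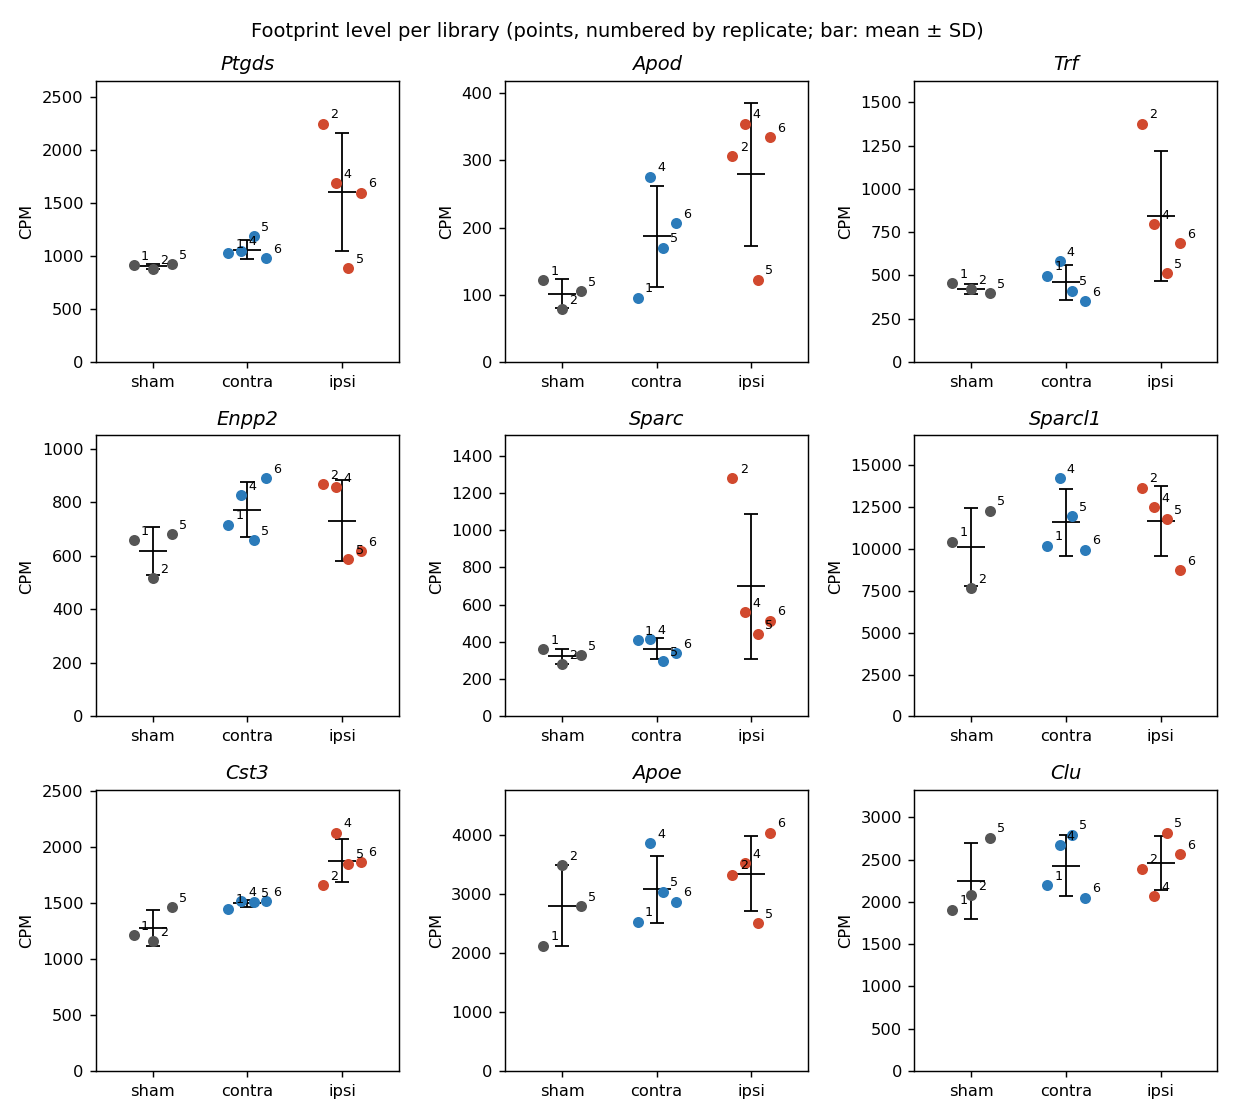
Footprint level (CPM, linear axis from 0) of the 9 genes in each library, as points numbered by replicate, with mean ± SD bars, in sham (n = 3), contralateral (n = 4) and ipsilateral (n = 4) cortex. Ipsilateral replicate 2 is the highest library for Sparc at 1279 CPM and for Trf at 1376 CPM, while ipsilateral replicate 5 lies among the sham libraries for Ptgds.

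Against the contralateral hemisphere of animals with the same surgery, Trf, Sparc and Ptgds had the largest ipsilateral differences in the fit without a block. The log2 changes were 0.94 ± 0.23 for Trf (edgeR adjusted p = 0.0928), 1.02 ± 0.27 for Sparc (0.200) and 0.60 ± 0.17 for Ptgds (0.200). Apod differed less, by 0.56 ± 0.26 (0.605), and Cst3 by 0.31 ± 0.14 (0.565). With the replicate number as a block the changes were 0.76 ± 0.20 for Trf (edgeR adjusted p = 0.126) and 0.76 ± 0.22 for Sparc (0.234). Apod, at 0.50 ± 0.26 (0.707), was then above Ptgds, at 0.46 ± 0.19 (0.534). In the fit without a block no member passed over all genes, where 0.315% did. At an unadjusted p under 0.05 stood 5 of 9 members, all higher, against 7.88% of all genes and 4.54% counting only higher ones. Every ipsilateral library was above every contralateral library for 2 of 9 (Sparc and Cst3) against 2.13%. In all 8 of 9 members had a log2 change above 0, against 49.6% of all genes. The median log2 change was 0.31 over the members and -0.00 over all genes.

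In contralateral replicates 1, 4, 5 and 6, Trf measured 499, 582, 411 and 352 CPM, so only ipsilateral replicate 5, at 514 CPM, lay inside that range. Sparc measured 410, 413, 295 and 339 CPM, all below the lowest ipsilateral library at 441 CPM. Ptgds measured 1025, 1049, 1185 and 980 CPM, and ipsilateral replicate 5 at 882 CPM fell below them all while the other ipsilateral libraries lay above. The overlap of Trf and of Ptgds with the contralateral group thus came from that library. Without it, Ptgds (log2 change 0.82), Trf (1.13) and Sparc (1.21) passed the edgeR test, with adjusted p of 0.00232 for the first pair and 0.00643 for Sparc. In that fit 26 of all genes passed. Without ipsilateral replicate 6, Trf (1.07, adjusted p = 0.0335) and Sparc (1.20, 0.0253) passed, among 14 genes in all. DESeq2 called only Trf of the members (adjusted p = 0.0494), and 13 genes in all.

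Without ipsilateral replicate 2 these differences were smaller: 0.53 for Trf, 0.47 for Sparc and 0.36 for Ptgds. The remaining genes differed little between hemispheres. Sparcl1 differed by 0.01 ± 0.15, Clu by 0.03 ± 0.14, Apoe by 0.12 ± 0.15 and Enpp2 by -0.10 ± 0.17, each with an edgeR adjusted p above 0.9.

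The contralateral hemisphere was compared with sham to ask what occlusion did on the other side of the brain. Apod stood highest, at 95.6, 276, 170 and 206 CPM in contralateral replicates 1, 4, 5 and 6, with a log2 change of 0.79 ± 0.30 (edgeR adjusted p = 0.769), or 0.38 with the replicate number as a block. Its mean was thus 102 ± 21.9 CPM in sham, 187 ± 75.0 in contralateral and 279 ± 106 in ipsilateral cortex. The contralateral replicate 1 library lay inside the sham range. Every contralateral Ptgds library lay above every sham library, at a log2 change of 0.23 ± 0.19 (adjusted p = 0.953). That made 1 of 9 members, against 3.81% of all genes.

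Trf and Sparc, the genes with large ipsilateral differences, differed by 0.08 ± 0.25 and 0.12 ± 0.30 in the contralateral hemisphere against sham, or 0.24 and 0.32 with the block. Cst3 measured 1448, 1516, 1508 and 1518 CPM there, between most sham and all ipsilateral libraries, with a log2 change of 0.22 ± 0.15. Enpp2 differed by 0.30 ± 0.17, Sparcl1 by 0.19 ± 0.16, Apoe by 0.15 ± 0.17 and Clu by 0.11 ± 0.15. No member passed in edgeR, where 0% of all genes did, and 1 of 9 (Apod, higher) stood at an unadjusted p under 0.05, against 5.59% of all genes and 2.92% counting only higher ones. All 9 log2 changes were above 0, against 52.0% of all genes. DESeq2 called 0 members and 2 genes. The 3 comparisons share groups, so their values for a gene are not independent.

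**Figure D3:**
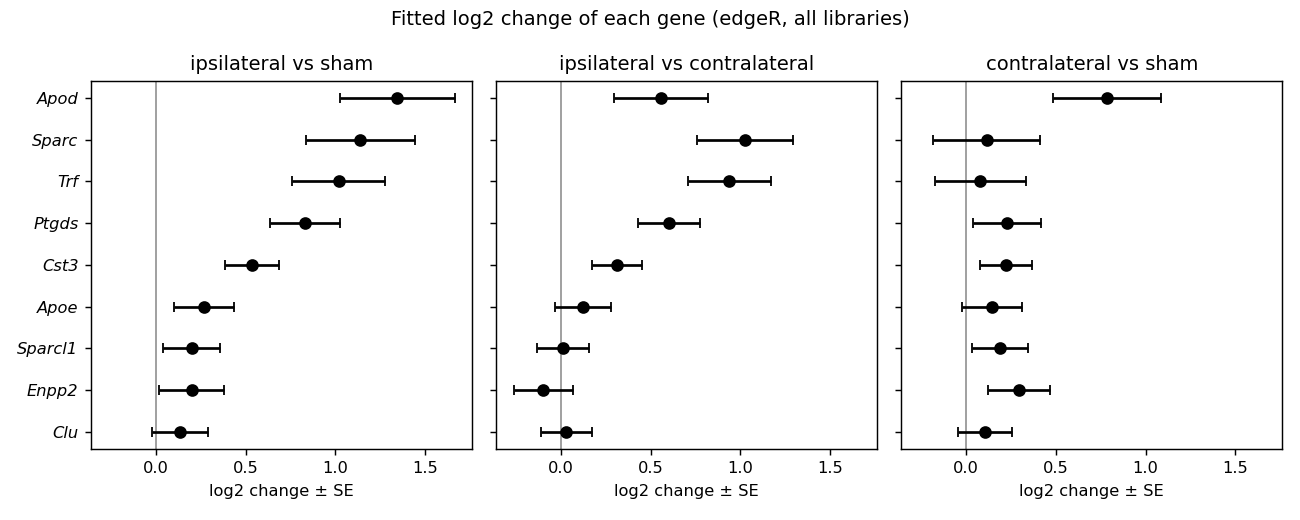
Fitted log2 change (points) with its standard error (bars) of each gene in the 3 comparisons, ordered by the change of ipsilateral against sham cortex. Apod is highest in the first panel at 1.35, while Trf and Sparc are near 1 in both ipsilateral comparisons and near 0 in contralateral against sham.

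Markers of the cells that make these proteins moved with some of them. Of 24 oligodendrocyte markers outside the 9 genes, 14 were tested. All 14 had a log2 change above 0 in ipsilateral against sham cortex (median 0.87). In edgeR 0 passed, 8 stood at an unadjusted p under 0.05, all higher, and DESeq2 called 1. Against contralateral cortex all 14 were again above 0 (median 0.73) and 3 rose in the edgeR test: Mbp, a myelin structural protein, by 1.08 ± 0.22 (adjusted p = 0.0107), the myelin adhesion protein Mag by 1.05 ± 0.24 (0.0467) and the tight junction protein Cldn11 by 1.05 ± 0.25 (0.0467). Cnp, an abundant myelin enzyme, measured 530 ± 160 CPM in ipsilateral, 324 ± 92.9 in contralateral and 349 ± 80.7 in sham cortex.

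The summed level of the 14 markers was 2498 to 3531 CPM in sham and 2607 to 3461 CPM in contralateral libraries. In ipsilateral replicates 2, 4, 5 and 6 it was 6768, 6172, 3136 and 4614 CPM. The same libraries thus stood high (replicates 2, 4 and 6) or low (replicate 5) for the markers as for Ptgds, Apod and Trf. Divided by this sum, Ptgds was 0.305 ± 0.0602 in sham and 0.308 ± 0.0362 in ipsilateral cortex, and Trf was 0.142 ± 0.0204 and 0.161 ± 0.0314. The ratio of Sparc was 0.110 ± 0.0267 and 0.133 ± 0.0425, and that of Apod 0.0347 ± 0.0110 and 0.0536 ± 0.0147. All 4 ratios overlapped between ipsilateral and sham libraries, and between ipsilateral and contralateral libraries. The ratio of Enpp2 was 0.211 ± 0.0635 in sham, 0.266 ± 0.0502 in contralateral and 0.147 ± 0.0273 in ipsilateral cortex, and the ipsilateral libraries overlapped with sham but not with contralateral. For Sparcl1, Cst3, Apoe and Clu the mean ratio was lower in ipsilateral than in either other group, with overlap.

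**Figure D4:**
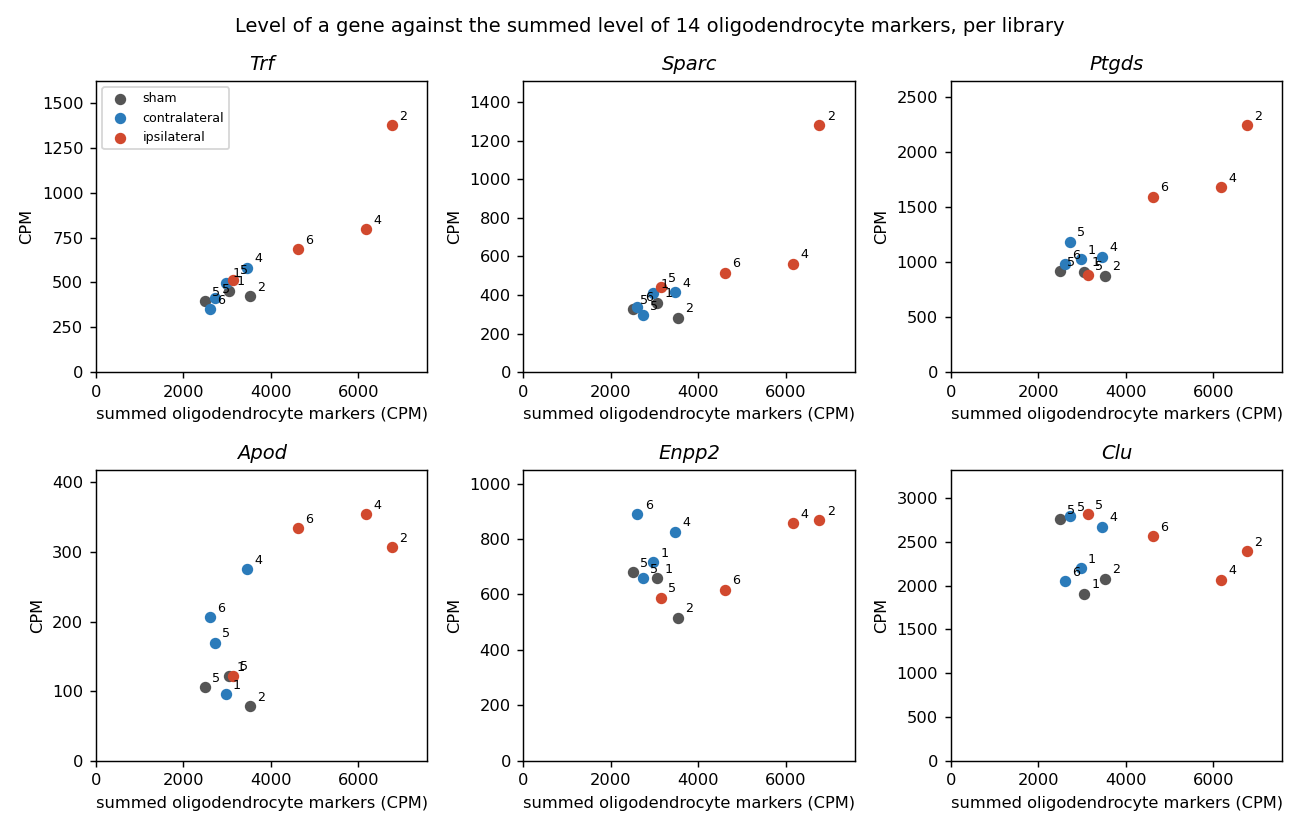
CPM of 6 of the genes against the summed CPM of 14 oligodendrocyte markers in each library, numbered by replicate and coloured by group (linear axes from 0). Ipsilateral replicates 2, 4 and 6 have marker sums of 4614 to 6768 CPM and the highest Trf levels, while ipsilateral replicate 5 sits with the sham and contralateral libraries; Clu shows no such order.

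Of 24 astrocyte markers 23 were tested and 0 passed in any of the 3 comparisons in edgeR or DESeq2, with 1 to 3 of them at an unadjusted p under 0.05. Against sham, 18 had an ipsilateral log2 change above 0 (median 0.13), and against contralateral cortex 12 did (median 0.00). Their summed level was 21162 to 26757 CPM in sham, 23837 to 30993 in contralateral and 24020 to 27124 in ipsilateral libraries. The most abundant were Cpe, Glul and Slc1a2, with ipsilateral log2 changes against sham of 0.11 ± 0.14, -0.04 ± 0.13 and 0.08 ± 0.16. Divided by the astrocyte sum, Cst3 was 0.0747 ± 0.00781 in ipsilateral against 0.0543 ± 0.00308 in sham and 0.0557 ± 0.00547 in contralateral cortex, without overlap with either group. Clu stayed at 0.0981 ± 0.0145 against 0.0950 ± 0.00712 and 0.0896 ± 0.00828. The ratio of Sparc was also above both groups without overlap, at 0.0280 ± 0.0164 against 0.0139 ± 0.00271 in sham and 0.0136 ± 0.00274 in contralateral cortex. That of Trf, 0.0337 ± 0.0157, overlapped with sham (0.0183 ± 0.00335) but not with contralateral libraries (0.0170 ± 0.00339). The ratios of Ptgds, Apod, Enpp2, Sparcl1, Apoe and Clu overlapped with both groups.

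Microglia make Cst3 and Apoe as well. Of 16 microglia markers 8 were tested, all 8 had an ipsilateral log2 change above 0 against sham (median 0.72) and against contralateral cortex (median 0.52). In edgeR and DESeq2 0 passed, with 6 and 4 at an unadjusted p under 0.05 in these comparisons. Their sum was 906 to 1199 CPM in sham, 1237 to 1447 in contralateral and 1543 to 2067 in ipsilateral libraries, so the 3 groups did not overlap. Among the abundant ones, the growth factor receptor gene Csf1r differed by 0.55 ± 0.30 against sham and Ctss, a cathepsin, by 0.72 ± 0.27. Divided by the microglia sum, Cst3 was 1.07 ± 0.190 in ipsilateral and 1.21 ± 0.0748 in sham cortex and overlapped. The ratios of Ptgds (0.892 ± 0.283 in ipsilateral, 0.861 ± 0.0999 in sham), Trf (0.473 ± 0.197 and 0.406 ± 0.0691), Sparc (0.391 ± 0.207 and 0.306 ± 0.0315) and Apod (0.155 ± 0.0548 and 0.0958 ± 0.0150) to this sum also overlapped, with sham and with contralateral libraries, as they did for the oligodendrocyte sum. The ratio of Sparcl1, 6.68 ± 1.64 in ipsilateral cortex, was below sham (9.47 ± 0.917) and contralateral libraries (8.75 ± 0.909) without overlap. That of Enpp2, 0.415 ± 0.0947, was below sham (0.583 ± 0.0257) without overlap but overlapped with contralateral libraries. Those of Apoe and Clu overlapped with both groups. Over the 11 libraries, Spearman's r with the microglia sum was 0.764 for Ptgds, 0.873 for Apod, 0.836 for Sparc and 0.745 for Trf. With the oligodendrocyte sum it was 0.473, 0.545, 0.700 and 0.891. Pearson's r on the log2 scale was 0.779, 0.835, 0.729 and 0.725 with the microglia sum. It was 0.878, 0.684, 0.840 and 0.931 with the oligodendrocyte sum. The part of these marker levels in the differences of the 9 genes was not tested.

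Markers of other possible sources were few among the genes analysed, all of which had a summed count of at least 101, so missing markers do not show that those cells were missing. None of 10 choroid plexus markers, Ttr among them, was among them. Of 15 meningeal and fibroblast markers 2 were tested (Igfbp2 and Dcn), with sums of 102 to 250 CPM in sham, 102 to 153 in contralateral and 98.0 to 292 in ipsilateral libraries. Of 22 endothelial and mural markers 2 were tested (Slc2a1 and Vtn), with sums of 243 to 322, 241 to 314 and 196 to 446 CPM. None of these 4 genes passed in edgeR or DESeq2, and only Vtn, against contralateral cortex (0.64 ± 0.25), stood at an unadjusted p under 0.05. Of 6 red cell genes 4 were tested, with sums of 891 to 1320 CPM in sham, 567 to 998 in contralateral and 1038 to 2038 in ipsilateral libraries. The alpha globin copies Hba-a1 (1.11 ± 0.23, adjusted p = 0.0107) and Hba-a2 (1.13 ± 0.25, 0.0305) rose against contralateral cortex. Against sham they differed by 0.25 ± 0.24 and 0.20 ± 0.27 in ipsilateral and by -0.86 ± 0.24 and -0.93 ± 0.26 in contralateral cortex, with no call in edgeR. As near-identical copies they cannot be counted apart with certainty. All 18 neuron markers were tested and 0 passed in edgeR or DESeq2. Against sham 5 were above 0 (median -0.13), and 1, a higher one, stood at an unadjusted p under 0.05. The most abundant, Snap25, Map2 and Syt1, differed by -0.16 ± 0.14, 0.16 ± 0.15 and -0.01 ± 0.15.

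No call was made among the receptors, enzymes and substrates through which these proteins act. Of 20 such partners 14 were tested and 0 passed in any comparison in edgeR or DESeq2. In ipsilateral against sham cortex 9 of the 14 were above 0 (median 0.01), and 2 stood at an unadjusted edgeR p under 0.05, higher. Against contralateral cortex 3 of the 14 were above 0 (median -0.12), and 2 stood at an unadjusted p under 0.05, lower. In contralateral against sham cortex 12 of the 14 were above 0 (median 0.24), with 0 at an unadjusted p under 0.05. The log2 changes of single partners below are ipsilateral against sham. Tfrc, the transferrin receptor that takes up Trf, measured 304 ± 114 CPM in sham, 423 ± 87.3 in contralateral and 313 ± 98.9 in ipsilateral cortex. Of the receptors for Apoe, Lrp1 differed by -0.11 ± 0.14 against sham and Vldlr by 0.20 ± 0.31. Abca1, which loads cholesterol onto Apoe, differed by 0.01 ± 0.32, and Sort1, a sorting receptor that binds Apoe, by 0.01 ± 0.16. Plpp3, which breaks down lysophosphatidic acid, differed by 0.14 ± 0.22. Of the cathepsins that Cst3 inhibits, Ctsb differed by 0.04 ± 0.15, Ctsl by 0.01 ± 0.23 and Ctss by 0.72 ± 0.27. Among partners at the cell surface, Itgb1 differed by 0.09 ± 0.35, Nlgn1 by -0.07 ± 0.31 and Bsg by -0.00 ± 0.17.

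In each of 5 wider pathway lists 0 genes passed in any comparison in edgeR or DESeq2, and 0 to 2 genes of a list stood at an unadjusted p under 0.05. For lipid transport 14 of 24 genes were tested, 8 above 0 in ipsilateral against sham cortex (median 0.01). Its most abundant members were Psap, the saposin precursor, at 0.12 ± 0.13, Lrp1, and the sorting receptor Sorl1 at -0.15 ± 0.16. For prostaglandin and lysophosphatidic acid signalling 9 of 26 were tested, 5 above 0 (median 0.04). Plppr4, a neuronal lipid phosphatase-related protein, measured 618 ± 75.3 CPM in sham and 423 ± 110 in ipsilateral cortex (-0.46 ± 0.19, edgeR adjusted p = 0.501), and Pla2g7 differed by 0.20 ± 0.19. For iron handling 7 of 21 were tested, 2 above 0 (median -0.11). Fth1, the ferritin heavy chain that stores iron, differed by -0.00 ± 0.22 and Pcbp1, an iron chaperone, by -0.17 ± 0.20. For matrix genes 21 of 40 were tested, 16 above 0 (median 0.12). The proteoglycans Spock2 and Spock1, of the same wider family as Sparc, differed by 0.06 ± 0.16 and -0.19 ± 0.17, and the adhesion molecule Chl1 by -0.16 ± 0.17. For proteases and their inhibitors 10 of 22 were tested, 8 above 0 (median 0.09), with the aspartic protease Ctsd at 0.23 ± 0.17 and the inhibitor Serpini1 at 0.12 ± 0.18.

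Over the 11 libraries the 9 genes varied unequally together. Of 36 pairs, Pearson's r of log2 CPM ran from -0.165 (Enpp2 and Clu) to 0.960 (Trf and Sparc) with a median of 0.426. Ptgds joined Trf (0.891) and Sparc (0.854), and Apod was closest to Ptgds (0.796) and Cst3 (0.711). By ranks (Spearman's r) Ptgds was at 0.618 with Trf and 0.645 with Sparc. Apod was then closest to Cst3 (0.873), followed by Ptgds (0.809). Sparcl1, Apoe and Clu, all made by astrocytes, were paired weakly, with 0.433 for Sparcl1 and Clu, 0.231 for Apoe and Clu and 0.00 for Sparcl1 and Apoe. These correlations describe 11 libraries that differ in depth and group, and a few ipsilateral libraries stand apart, so no p is given.

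The tested genes outside the set most like each member were found by the same measure over 11 libraries. Trf was most like Gm20425 (r = 0.995), which shares its sequence, and Cldn11 (0.934) was also among its nearest genes. Sparc was near the same pair, at 0.944 for Gm20425 and 0.896 for Cldn11. Ptgds was near the tetraspanin Cd9 (0.890) and Gm20425 (0.889). Since Gm20425 shares sequence with Trf, its values for Sparc and Ptgds are not separate from those of Trf with these genes. Cst3 was most like Hspa5 (0.950), the endoplasmic reticulum chaperone, Lgmn (0.927), a lysosomal cysteine protease, and Dpy19l1 (0.919). Apod was most like the glial potassium channel gene Kcnj10 (0.884), the inositol transporter gene Slc5a3 (0.884) and Hyou1 (0.875), another chaperone of the endoplasmic reticulum. Apoe was nearest to Slc6a17 (0.932). Clu was nearest to Zfand3 (0.856), Enpp2 to Smad4 (0.871) and Sparcl1 to Aplp2 (0.874).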

How the data were processed

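Footprints from micrococcal nuclease-digested cortex were captured through ribosomal protein P0, per the labels. The authors deposited whole-number counts per Ensembl transcript. Per the submitters' processing notes, Bowtie2, edgeR and the mm10 build were used. How reads were counted, and with which strand setting, is not given in the sources used here. Of 9784 transcripts 9736 matched GENCODE vM21, and the other 48 (0.306% of counts) were left out. Since many isoforms carry identical counts, 1 transcript per gene was used. edgeR 4.0.16 in R 4.3.3 fitted all 11 libraries (filterByExpr, minimum count 10, TMM, robust quasi-likelihood F test, no block), with Benjamini-Hochberg adjustment over 3807 genes; the common dispersion was 0.0291. The fit was also run on simulated counts with 1 fixed dispersion for all genes and no outlying library or surgery day. That run does not show how the fit performs on the spread of these libraries. Correlations used log2 CPM with a prior count of 2. The members and lists were chosen with earlier results of these data known. Outside the members, the text names the 3 most abundant genes of a list, any called gene, all tested partners and the 3 genes most like a member. Some genes that this rule picks are not reported here. Alternatives were DESeq2 1.42.0, other size factors and filters, the replicate number as a block, 2-group fits, summed transcripts and libraries left out. Replicate numbers mark the surgery day, per the labels, so the block pairs libraries by day. Deviations of the 7 same-number pairs correlated at -0.137 to 0.225 (median 0.134). The 33 other pairs ran from -0.256 to 0.262 (median -0.0294), a range that contains that of the same-number pairs.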

Additional observations from a re-analysis of the deposited data

Results flagged for a closer look

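Among 18 sets of 4 libraries (9 genes in 2 groups), 2 held a library far from the others by Dixon's criterion, which chance meets in about 1 in 20 sets. Sparc in ipsilateral replicate 2 measured 1279 CPM, with a gap of 0.857 of the group's range to the next library; without this library the change against sham was 0.58 on the log2 scale. Cst3 in contralateral replicate 1 measured 1448 CPM, also with a gap of 0.857, in a group whose range was only 1448 to 1518 CPM.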

How the results depend on the processing

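In ipsilateral against sham cortex 4 genes and 0 members were called; DESeq2 called 10 and 5. Leaving out 1 library gave 0 (without sham replicate 1; 2 without sham replicate 5) to 22 genes (without ipsilateral replicate 5) and 0 to 4 members. Against contralateral cortex 12 genes and 0 members were called; DESeq2 called 1 member, summed transcripts gave 7 genes, dropping the 2 shallowest libraries 7, and leaving out 1 library 3 (without ipsilateral replicate 2; 4 without contralateral replicate 6, 5 without contralateral replicate 1) to 26 genes (without ipsilateral replicate 5) and 0 to 3 members. In contralateral against sham cortex 0 genes were called; DESeq2 called 2 genes, and leaving out 1 library gave 0 to 3 genes (3 without sham replicate 5) and 0 members. With the replicate number as a block 3, 9 and 0 genes and 0 members were called in the 3 comparisons, and no call on a member changed. Signs turned only for small changes. Against contralateral cortex Apoe was -0.0092 with the block, Sparcl1 was -0.023 without the 2 shallowest libraries, and leaving out 1 library gave -0.078 to 0.14 for Sparcl1, -0.045 to 0.11 for Clu and -0.23 to 0.0023 for Enpp2. Against sham, ipsilateral Sparcl1 was -0.00084 without the 2 shallowest libraries, and leaving out 1 library gave contralateral values of -0.028 to 0.31 for Apoe, -0.0082 to 0.28 for Clu and -0.052 to 0.20 for Trf. The cause was not tested. Depth limits Apod most, with 5 to 115 counts a library.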
